A study of Homo sapiens with 8 samples.

Results

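Carbonic anhydrases are enzymes that turn carbon dioxide and water into bicarbonate and a proton, and the family here comprised the 9 genes CA9, CA12, CA1, CA2, CA13, CA4, CA5B, CA8 and CA11, chosen by symbol from the 54261 genes of the count table. Of these 9 genes, 7 had more than 3 counts in at least 1 library, while CA1 had 0 counts in all 8 libraries and CA4 had at most 1. The libraries were made from total RNA, depleted of ribosomal RNA, of untreated NCM460 and HIEC6 (lines of normal human intestinal epithelium, n = 2), from the untreated CRC lines DLD1, HCT116 and HCT8 (n = 3) and from the same 3 CRC lines with hypoxia treatment (n = 3). Each line gave 1 library per condition, at passage 5, so the replicates of a group were different lines. The oxygen level and the length of the treatment were not given in the sources used here. The study's methods describe HCT8 as wild type for p53 and mutant for APC, and DLD1 as mutant for both. All lines grew in serum-supplemented DMEM. The extraction text of the labels names prefrontal cortex, which goes against the cell lines named in every other label.

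Total counts lay between 45519306 and 57374239 per library, so that 3 counts, taken as the detection floor, corresponded to 0.0523 to 0.0659 CPM (each count divided by the total of its library, times 1e+06). These floors and all intervals below cover counting error only. Of 11 epithelial markers, 0 to 3 were at or under 3 counts in each library. In HIEC6 these were KRT20, CDX1 and CDX2, and EPCAM had 10 counts there against 10969 to 33357 in the other 7 libraries. KRT8 and KRT18, also epithelial markers, had 243272 and 211257 counts in HIEC6. The summed level of 10 mesenchymal markers was 1482 CPM in HIEC6 against 13.5 to 175 in the other 7 libraries. VIM, 1 of them, had 69375 counts in HIEC6 and at most 1142 elsewhere. HCT116 lacked KRT20, VIL1 and CDX1. Across genes, the library labelled NCM460 correlated with HCT116 (Pearson r of log2(CPM + 1) 0.994) more closely than with the other normal line, HIEC6 (0.924), and the comparison that rests on it is also given without it. The hypoxia libraries and the untreated CRC libraries shared no sample code in their descriptions, so whatever the code stands for and the treatment cannot be told apart. A second code was carried by NCM460 and by the hypoxia libraries of DLD1 and HCT116, and by neither HCT8 library.

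Members of this family differ in where they work. CA9 and CA12 are anchored in the plasma membrane with the catalytic domain facing outward, and CA9 is a classical target of the hypoxia-inducible factors, which bind a short motif in DNA when oxygen is low. CA12 is also described as hypoxia-inducible in tumours. CA1, CA2 and CA13 are cytosolic enzymes, of which CA1 and CA2 are abundant in the differentiated epithelium of the colon. CA4 is held on the cell surface by a lipid anchor, CA5B works in mitochondria, and CA8 and CA11 are related proteins without carbonic anhydrase activity.

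CA9 was near the floor in untreated CRC lines and higher in each of them under hypoxia. It had 1 count in DLD1, 6 in HCT116 and 4 in HCT8 without treatment. Under hypoxia it had 242 counts in DLD1, 1039 in HCT116 and 178 in HCT8. The hypoxia libraries lay above every untreated library, including HIEC6 with 6 counts and the library labelled NCM460 with 36. In CPM the mean was 0.0701 ± 0.0479 (SD, n = 3) in the untreated CRC lines and 8.96 ± 8.48 (SD, n = 3) under hypoxia, with HCT116 (18.8 CPM) above DLD1 (4.22 CPM) and HCT8 (3.91 CPM). The ratio of hypoxia to untreated CPM was 163 in HCT116, with an exact 95% counting interval of 74.8 to 446. In HCT8 it was 51.5 (19.8 to 191). In DLD1, where the untreated library held a single read, it was 216 (38.4 to 8567). The intervals of the 3 lines overlap, and HCT8 carried no second sample code in either library.

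Hypoxia was compared with no treatment by edgeR's quasi-likelihood test over 21045 genes, each with 10 or more counts in 2 or more of the 6 CRC libraries. CA9 passed this filter only through its hypoxia libraries. Its log2 fold change was 7.26 (standard error 1.28), the 6th highest of all genes tested. The size and rank of this value depend on untreated libraries with 1 to 6 counts. By the difference in log2(CPM + 1), CA9 ranked 18 in DLD1, 10 in HCT116 and 67 in HCT8 among the same genes. Without the cell line in the model no gene passed the threshold (0 of 21045, 0%), and 607 genes had an unadjusted p under 0.05, CA9 among them (unadjusted p = 0.00112, edgeR adjusted p = 1 after Benjamini-Hochberg correction). DESeq2 on the same libraries called 51 genes (0.242%, with 0.219% higher and 0.0238% lower), of which CA9 was the only member (adjusted p = 4.47e-08). Replicate numbers in the labels stand for the cell line, and with the line as a block edgeR called 200 genes (0.95%), 156 of them higher (0.741%) and 44 lower (0.209%). With this block CA9 was the member called, with a log2 fold change of 7.0 (standard error 0.53, edgeR adjusted p = 0.00447), and 1 of the 7 tested members thus passed. CA9 was also the 1 member whose 3 hypoxia libraries all lay above the 3 untreated ones, which 3.06% of all genes tested did. None of the members (0) had its hypoxia libraries all below the untreated ones, against 6.44% of all genes.

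**Figure D1:**
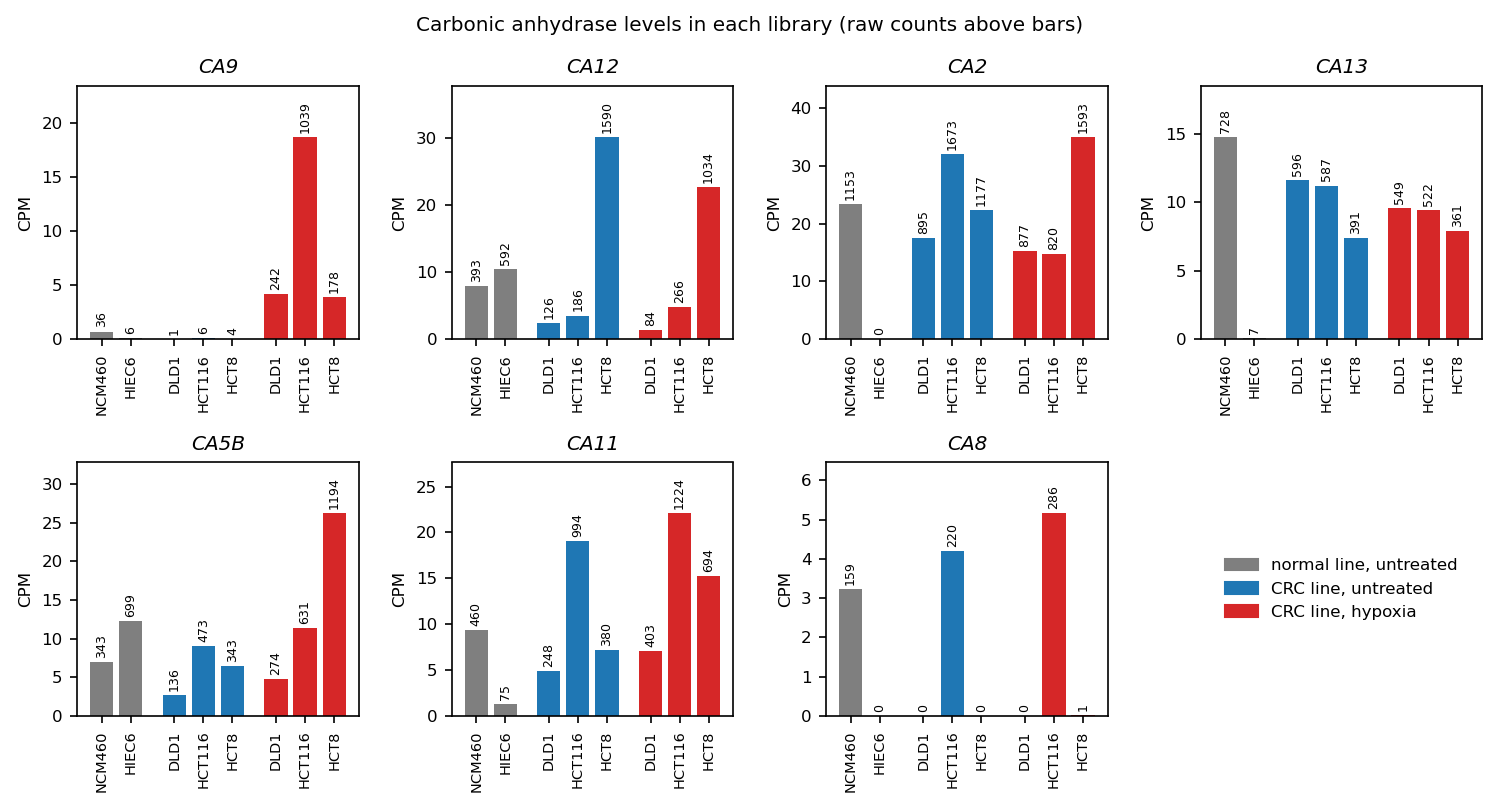
CPM of the 7 detected carbonic anhydrases (vertical axes, each on its own linear scale) in the 8 libraries, with raw counts above the bars; each bar is 1 library. CA9 stands at 178 to 1039 counts under hypoxia against 1 to 6 in untreated CRC lines, whereas CA12 is highest in HCT8 among the CRC lines in both conditions and CA8 is above 3 counts only in NCM460 and the HCT116 libraries.

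CA9 (ENSG00000107159) occupies positions 35673925 to 35681156 of chromosome 9 (GRCh37, plus strand) and overlaps ARHGEF39 on the opposite strand. The counting was not stated to use strand, so reads in the overlap cannot be told apart. ARHGEF39 had 414 to 1951 counts in the CRC libraries. Its level in CPM was 23.8 in untreated DLD1 and 25.6 under hypoxia, and it was lower under hypoxia in HCT116 (20.8 and 7.47) and HCT8 (37.1 and 25.7), while CA9 was higher in all of them. The library labelled NCM460 held more CA9 than untreated HCT116, at a CPM ratio of 6.37 (2.66 to 18.5), and 2 of the 3 hypoxia libraries share its second sample code. The part of that code in the CA9 level was not tested. The summed level of 10 mesenchymal markers also moved under hypoxia. It went from 13.5 to 96.3 CPM in DLD1, from 43.8 to 175 in HCT116 and from 16.7 to 26.0 in HCT8. The sum of the 11 epithelial markers was higher as well (11843 to 13848, 4942 to 6066 and 8988 to 14454 CPM in these lines). In HCT8 VIM (54 and 10 counts), COL1A2, COL3A1, ZEB1, ZEB2 and THY1 were lower in CPM under hypoxia. COL1A1, PDGFRB, FN1 and CDH2 were higher there. The part of either sum in these results was not tested. In the fit with the block 9 of the 9 mesenchymal markers tested had a positive log2 fold change. Of these, 1 (FN1) passed in edgeR, beside 0.95% of all genes, and 4 in DESeq2, beside 7.92%. In HCT8 CDH2, ZEB2 and THY1 were at or under 3 counts under hypoxia.

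The promoters of CA9, CA12 and CA5B are shown because these genes were, in turn, called under hypoxia, listed beside CA9 as hypoxia-inducible, and higher in every line without passing edgeR. Each is 300 bases in the direction of the gene, from 250 before to 50 after the RefSeq start in GRCh38.p14. Capitals mark the core letters of the motif bound by hypoxia-inducible factors, ACGTG or GCGTG, on either strand (CACGT and CACGC when read on the other strand). The windows are chr9:35673678-35673977 on the plus strand for CA9, chr15:63381797-63382096 on the minus strand for CA12 and chrX:15738020-15738319 on the plus strand for CA5B. RefSeq sequences of 3 of the 9 members were used, and CA1, CA2, CA13, CA4, CA8 and CA11 were not analysed here.
CA9: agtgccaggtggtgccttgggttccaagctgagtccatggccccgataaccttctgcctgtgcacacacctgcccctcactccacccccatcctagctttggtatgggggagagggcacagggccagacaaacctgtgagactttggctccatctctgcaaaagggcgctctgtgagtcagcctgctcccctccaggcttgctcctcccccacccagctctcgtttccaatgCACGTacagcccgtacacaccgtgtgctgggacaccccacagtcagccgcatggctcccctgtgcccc
CA12: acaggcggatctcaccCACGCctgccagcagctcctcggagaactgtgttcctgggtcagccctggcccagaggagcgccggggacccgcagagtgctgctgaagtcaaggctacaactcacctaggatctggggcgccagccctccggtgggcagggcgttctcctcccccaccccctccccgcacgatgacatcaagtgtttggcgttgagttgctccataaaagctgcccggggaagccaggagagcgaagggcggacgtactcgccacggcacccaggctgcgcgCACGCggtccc
CA5B: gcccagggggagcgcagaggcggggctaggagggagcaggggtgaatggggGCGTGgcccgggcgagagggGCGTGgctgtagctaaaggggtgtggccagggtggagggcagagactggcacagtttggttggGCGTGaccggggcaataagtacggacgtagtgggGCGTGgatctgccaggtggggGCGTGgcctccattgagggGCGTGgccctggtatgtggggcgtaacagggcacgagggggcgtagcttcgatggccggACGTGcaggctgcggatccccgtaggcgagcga
The CA9 window held 1 match, ACGTG read on the minus strand, from 18 to 14 bases before the start. CA12 held GCGTG 2 times on the strand opposite to the gene, from -234 to -230 and from 39 to 43 relative to the start, and no ACGTG. CA5B held GCGTG 6 times before the start and ACGTG 1 time after it. Of all 35116 promoter windows of this length, 21.4% held ACGTG and 36.5% held GCGTG on either strand, and 48.4% held at least 1 of them, so that a match does not mark a gene out. A match is a description of the letters and not of binding.

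CA12, the other outward-facing enzyme, did not move with CA9. In the order DLD1, HCT116 and HCT8, which is kept for all counts below, it had 126, 186 and 1590 counts without treatment and 84, 266 and 1034 with hypoxia. HCT8 was the highest of the CRC lines in either condition, at 30.2 CPM without treatment and 22.7 CPM under hypoxia. The ratio of hypoxia to untreated CPM was below 1 in DLD1 (0.595, exact 95% counting interval 0.446 to 0.791) and HCT8 (0.752, 0.695 to 0.814) and above 1 in HCT116 (1.35, 1.11 to 1.64). The groups overlapped widely, with means of 12.1 ± 15.7 CPM untreated and 9.66 ± 11.4 CPM under hypoxia (SD, n = 3). The log2 fold change was -0.23 (standard error 1.23, edgeR adjusted p = 1) and -0.11 with the line as block (standard error 0.33, edgeR adjusted p = 0.897). CA12 (ENSG00000074410) lies on the minus strand of chromosome 15 from 63613577 to 63674045 (GRCh37) and overlaps no annotated gene.

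In HCT116 the choice of library size shifted the difference of every member. The TMM factor of its hypoxia library was 0.771, and the median gene in this line had a log2 CPM difference of -0.35, against -0.016 in DLD1 and 0.0076 in HCT8. RN7SK, a structured noncoding RNA, took 4.05% of the HCT116 hypoxia library and 2.85% of the untreated one, and its part in the shift was not tested. With TMM-scaled library sizes the HCT116 differences are 0.36 higher on the log2 scale. CA12 then had 0.79 in place of 0.43, CA2 -0.76 in place of -1.11 and CA13 0.10 in place of -0.25, so that the direction of CA13 in HCT116 turned with the scale.

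The mitochondrial enzyme CA5B was higher under hypoxia in each line. Its untreated counts were 136, 473 and 343, and its hypoxia counts were 274, 631 and 1194. The difference in CPM was largest in HCT8, where the ratio was 4.03 (3.57 to 4.55), and smaller in DLD1 (1.80, 1.46 to 2.23) and HCT116 (1.26, 1.11 to 1.42). The groups overlapped, since DLD1 under hypoxia (4.78 CPM) lay below untreated HCT116 (9.05 CPM). The log2 fold change was 1.20 with the line as block (standard error 0.32), which missed the threshold in edgeR (adjusted p = 0.119) and passed it in DESeq2 with the same block (adjusted p = 0.0124), where 7.92% of genes were called (4.54% higher and 3.38% lower). CA5B (ENSG00000169239, chromosome X, 15706953 to 15806534, GRCh37) overlaps its pseudogene CA5BP1 on the same strand, and the treatment of reads that match both is not given in the sources used here. CA5BP1 went from 554 to 293 counts in HCT8, from 299 to 275 in HCT116 and from 291 to 316 in DLD1. The sum of both differed less than CA5B alone in HCT8 and in the other lines, from 17 to 32.7 CPM in HCT8, from 14.8 to 16.4 in HCT116 and from 8.34 to 10.3 in DLD1. CA5B made up 38.2% of the joint counts in untreated HCT8 and 80.3% under hypoxia, so the split between the gene and its copy makes the value of CA5B uncertain.

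CA11, a relative without enzyme activity, was also higher in all 3 lines. Counts of 248, 994 and 380 without treatment stood against 403, 1224 and 694 with it. The CPM ratio was 1.45 (1.24 to 1.71) in DLD1, 1.16 (1.07 to 1.26) in HCT116 and 2.11 (1.86 to 2.40) in HCT8. HCT116 had the most in either condition, and the groups overlapped. With the block the log2 fold change was 0.74 (standard error 0.24, edgeR adjusted p = 0.159), and DESeq2 with the block gave an adjusted p of 0.0285. CA11 (ENSG00000063180) lies on chromosome 19 from 49141203 to 49149444 (GRCh37) and overlaps SEC1P on the opposite strand, which had at most 8 counts in any library. CA9, CA5B and CA11 were the 3 of 7 tested members with a higher CPM in 3 of 3 lines, beside 16.2% of all genes tested, and with TMM scaling they were the same 3 beside 22.4%. None of the 7 (0) was lower in 3 of 3 lines, beside 26.4% of all genes by CPM and 21.2% with TMM scaling.

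The cytosolic enzymes CA2 and CA13 did not move together across the lines. CA2 had 895, 1673 and 1177 counts before and 877, 820 and 1593 with hypoxia. It was lower under hypoxia in HCT116 (CPM ratio 0.462, 0.425 to 0.503) and slightly lower in DLD1 (0.875, 0.796 to 0.961), and it was higher in HCT8 (1.57, 1.45 to 1.69). CA13 had 596, 587 and 391 counts untreated and 549, 522 and 361 under hypoxia, and its CPM ratios lay between 0.822 in DLD1 and 1.07 in HCT8. Neither approached the threshold, with log2 fold changes of -0.09 for CA2 (standard error 0.28, edgeR adjusted p = 0.901) and -0.01 for CA13 (standard error 0.25, edgeR adjusted p = 0.984) with the line as block. Both genes lie on chromosome 8. CA2 overlaps CA3-AS1 on the opposite strand, which had at most 100 counts.

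CA8, a relative without enzyme activity, was seen in few libraries. It had 220 counts in HCT116, 286 in HCT116 under hypoxia and 159 in the library labelled NCM460. The other 5 libraries had 0 counts, except for 1 in HCT8 under hypoxia. The CPM ratio of hypoxia to untreated in HCT116 was 1.23 (1.02 to 1.47), and the fitted log2 fold change of 0.79 with the line as block (standard error 0.71, edgeR adjusted p = 0.607) rested on this line.

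**Figure D2:**
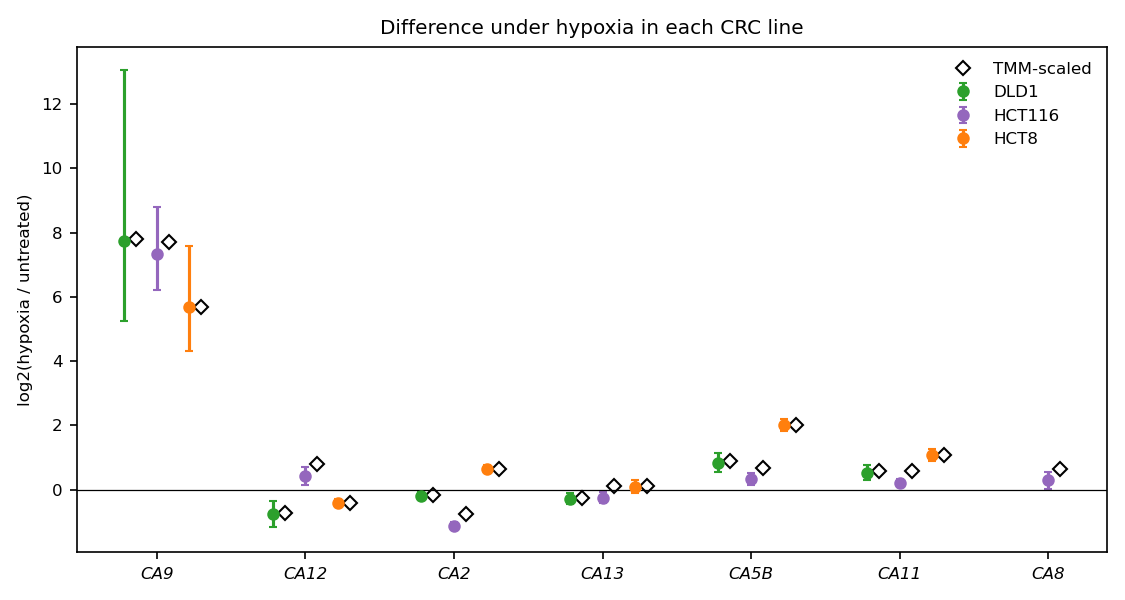
log2 ratio of hypoxia to untreated CPM for each detected member (horizontal axis) in DLD1, HCT116 and HCT8, with exact 95% counting intervals as bars and TMM-scaled values as open diamonds; each point compares 2 libraries. CA9 lies between 5.69 and 7.75 in every line, and the other members lie between -1.11 and 2.01.

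By line, 6 members could be compared in DLD1, 7 in HCT116 and 6 in HCT8, and 13 of these 19 differences were positive in CPM (14 with TMM scaling). For 18 of the 19 the counting interval excluded 0. Since each line had 1 library per condition, these intervals compare libraries, and the difference between lines was not tested. In DLD1 the log2 difference was 7.75 for CA9 and -0.75 for CA12, and the other members lay between -0.28 (CA13) and 0.85 (CA5B). In HCT116 it was 7.35 for CA9 and 0.43 for CA12, and the others lay between -1.11 (CA2) and 0.33 (CA5B). In HCT8 it was 5.69 for CA9 and -0.41 for CA12, and the others lay between 0.09 (CA13) and 2.01 (CA5B). CA9 thus stood above the other members in each line, whereas CA12 lay below CA5B and CA11 in DLD1 and HCT8, and in HCT116 its counting interval overlapped theirs in CPM.

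Levels of different members were compared as RPKM (CPM per kilobase of the union of annotated exons). In untreated CRC lines the order was CA2 (11.9 ± 3.69, SD, n = 3), CA11 (5.32 ± 3.90), CA13 (1.80 ± 0.415), CA12 (1.73 ± 2.24), CA5B (0.713 ± 0.378), CA8 (0.182 ± 0.316) and CA9 (0.0439 ± 0.030). Among neighbours in this order only CA11 and CA13 had ranges that did not overlap, and this depended on the length used. With the exon union the lowest CA11 value was 2.49 RPKM and the highest of CA13 was 2.08. With the length of the longest transcript CA13 stood above CA11 in untreated DLD1, and their ranges overlapped. With the exon union CA2 made up 52.3% to 62.4% of the family's summed RPKM in the untreated CRC lines, and CA9 at most 0.24%.

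Under hypoxia CA9 made up 16.1% of the family's RPKM in DLD1, 33.7% in HCT116 and 6.90% in HCT8. In HCT116 it reached 11.7 RPKM, next to CA11 with 11.4 and CA2 with 7.38, and when the longest transcript replaced the exon union as the length, CA11 stood above CA9. In DLD1 and HCT8 CA2 remained the highest member, with 7.62 and 17.4 RPKM, and CA9 there ranked 3 and 5 among the members. The summed RPKM of the family was 14.0, 29.9 and 21.3 without treatment and 16.3, 34.8 and 35.5 with it, in the same order of lines.

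**Figure D3:**
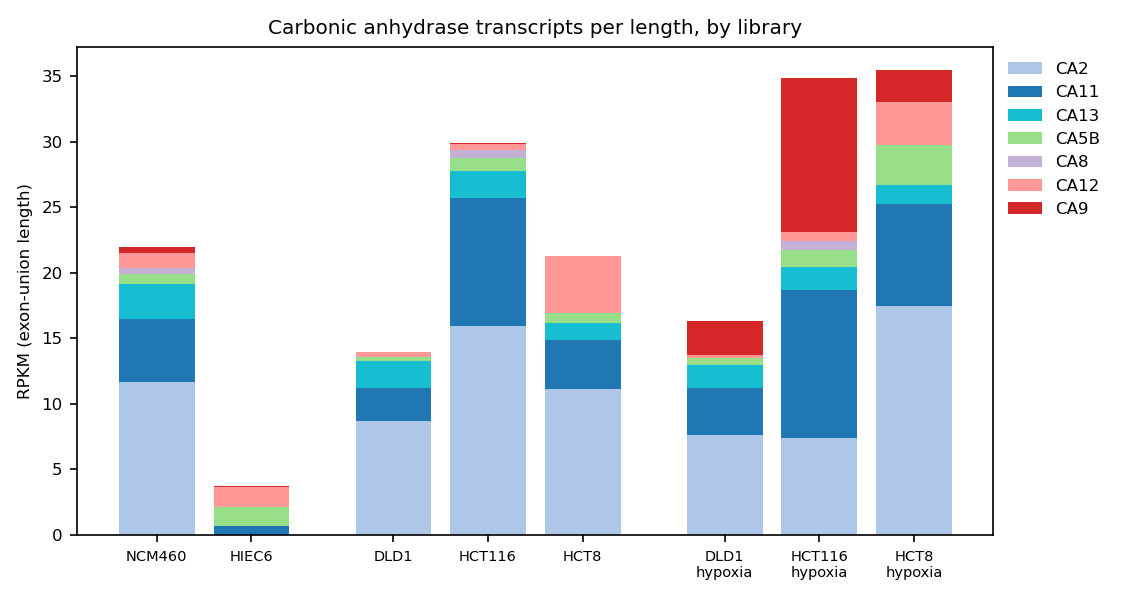
RPKM of the detected members (stacked, linear axis) in each of the 8 libraries. CA2 is the largest part in untreated CRC lines (52.3% to 62.4%) and has 0 counts in HIEC6, and CA9 appears as a visible part under hypoxia (6.90% to 33.7%).

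The 5 untreated libraries served to set CRC against normal lines. Neither the family nor any gene passed here (0 of 6 tested members, 0 of 19964 genes, 0%, with edgeR's quasi-likelihood test), 542 genes had an unadjusted p under 0.05 and none of these (0) was a member, and DESeq2 called 131 genes (0.656%, with 0.366% higher and 0.291% lower in CRC lines), again without a member. The normal lines differed widely from each other in CA2, CA13 and CA11, and also in the epithelial and mesenchymal markers given above. CA2 had 0 counts in HIEC6 and 1153 in the library labelled NCM460, beside 895 to 1673 in the CRC lines. Set against the floor of 3 counts in the HIEC6 library, CA2 was at least 330-fold higher in DLD1, 422.58-fold in HCT8 and 605-fold in HCT116, and the exact 95% lower limits of these ratios, which allow for counting error in both libraries, were 268, 343 and 492. CA13 had 7 counts in HIEC6 against 728 in NCM460 and 391 to 596 in the CRC lines, a CPM ratio over HIEC6 of 60.2 (28.9 to 151) in HCT8 and of 94.3 (45.5 to 236) in DLD1. CA11 was lower in HIEC6 (75 counts) than in all other libraries, where it had at least 248.

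CA12 and CA5B were the highest members by RPKM in HIEC6. CA12 had 592 counts in HIEC6 and 393 in NCM460, above DLD1 and HCT116 and below HCT8, and its log2 fold change was 0.11 (standard error 1.17, edgeR adjusted p = 0.999). CA5B had 699 counts in HIEC6 (12.3 CPM), above the 3 untreated CRC lines (2.66 to 9.05 CPM), and its log2 fold change was -0.87 (standard error 0.73, edgeR adjusted p = 0.999). CA12 and CA5B made up 40.3% and 39.0% of the family's RPKM in HIEC6, of a sum of 3.71 RPKM that was below the 14.0 to 29.9 of the CRC lines. Without the library labelled NCM460, HIEC6 was the lone normal line and edgeR again called 0 of 18994 genes, with an adjusted p of 0.146 for CA2 and 0.184 for CA13. CA12 then turned to a log2 fold change of -0.13, and CA5B had -1.27. The lone library was assumed to vary as the CRC lines do. CA9 did not pass the filter on low counts in this comparison. Without that filter its log2 fold change was -2.65 (edgeR adjusted p = 0.883), with 36 counts in NCM460 and at most 6 in the other untreated libraries.

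Of 11 further symbols (relatives, pseudogenes and an antisense gene), 10 were in the table and 3 passed the filter on low counts, CA14, CA3-AS1 and CA5BP1. CA5BP1, the pseudogene of CA5B, had 239 to 874 counts per library, above CA5B itself in HIEC6, in both DLD1 libraries and in untreated HCT8. CA14, a membrane enzyme, had 0 to 13 counts per library and passed the filter only through its hypoxia libraries. Its log2 fold change under hypoxia was 1.99 with the line as block (standard error 1.25, edgeR adjusted p = 0.449). CA3-AS1 had 55 counts in HCT8 and 100 under hypoxia, beside log2 fold changes in the block fit of 1.02 (CA3-AS1) and -0.19 (CA5BP1), neither of which passed.

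Genes that carry bicarbonate and protons across membranes act together with carbonic anhydrases on the pH of the cell, and 2 lists of them were examined. Of 15 bicarbonate transporters, 12 were tested, and their median log2 fold change with the line as block was 0.28, beside 0.03 for all genes tested. SLC4A8, a sodium-dependent chloride-bicarbonate exchanger, was the 1 called by edgeR with the block, beside 0.95% of all genes. DESeq2 with the block called SLC4A5 as well, beside 7.92% of all genes. SLC4A8 had 843, 90 and 1359 untreated counts and 2317, 180 and 2614 with hypoxia, a log2 fold change of 1.25 (standard error 0.20, edgeR adjusted p = 0.0351). SLC4A5, a sodium-bicarbonate cotransporter, had 37, 90 and 90 counts untreated and 116, 251 and 159 under hypoxia (log2 fold change 1.44, with the block an adjusted p of 0.116 in edgeR and of 0.00796 in DESeq2).

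Of 12 proton and lactate exporters, 10 were tested and 0 passed edgeR with the block, while 4 had an unadjusted p under 0.05, beside 3884 of all 21045 genes. DESeq2 with the block called 3 of the 10 (SLC9A2, SLC9A5 and SLC16A3), beside 7.92% of all genes. The median log2 fold change was 0.28. SLC16A3, the lactate and proton exporter MCT4, had 1568, 11346 and 3078 counts untreated and 8551, 14957 and 13303 under hypoxia (log2 fold change 1.79, standard error 0.34, edgeR adjusted p = 0.0583 with the block). SLC9A2, a sodium-proton exchanger, went the other way, from 1176, 252 and 7229 counts to 1140, 73 and 2253 (log2 fold change -1.03, standard error 0.29, edgeR adjusted p = 0.129 with the block).

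The pathway that controls CA9 was represented by 10 genes, of which 9 were tested. EGLN3, a prolyl hydroxylase that marks the hypoxia-inducible factors for destruction and is itself one of their targets, was the 1 called by edgeR with the block (log2 fold change 3.66, standard error 0.22, edgeR adjusted p = 0.000809). EGLN1, another such hydroxylase, had 3348, 2710 and 6297 counts untreated and 7240, 11079 and 12084 under hypoxia (log2 fold change 1.48, with the block an adjusted p of 0.0533 in edgeR and of 0.000215 in DESeq2). DESeq2 with the block called 5 of the 9, of which 3 were higher and 2 lower. The share of all genes called with the block was 0.95% in edgeR and 7.92% in DESeq2 (4.54% higher and 3.38% lower). The transcript of HIF1A, the oxygen-regulated subunit, had a log2 fold change of -0.03. Of 10 widely used hypoxia genes, 10 had positive log2 fold changes with the block, with a median of 3.13. In edgeR 6 passed (NDRG1, PDK1, BNIP3, EGLN3, P4HA1 and KDM3A), beside 0.95% of all genes. In DESeq2 with the block 10 passed, beside 7.92%. The list was chosen with earlier results of these data known, so it is not an independent check of the treatment. BNIP3 had 0 counts in untreated DLD1 and HCT8, 5 and 1 under hypoxia, and 969 and 10624 in HCT116. ANKRD37 had the largest log2 fold change of the hypoxia genes without the block (5.81), followed by NDRG1 (4.87). CA9 had 7.26, a value that depends on its 1 to 6 untreated counts.

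**Figure D4:**
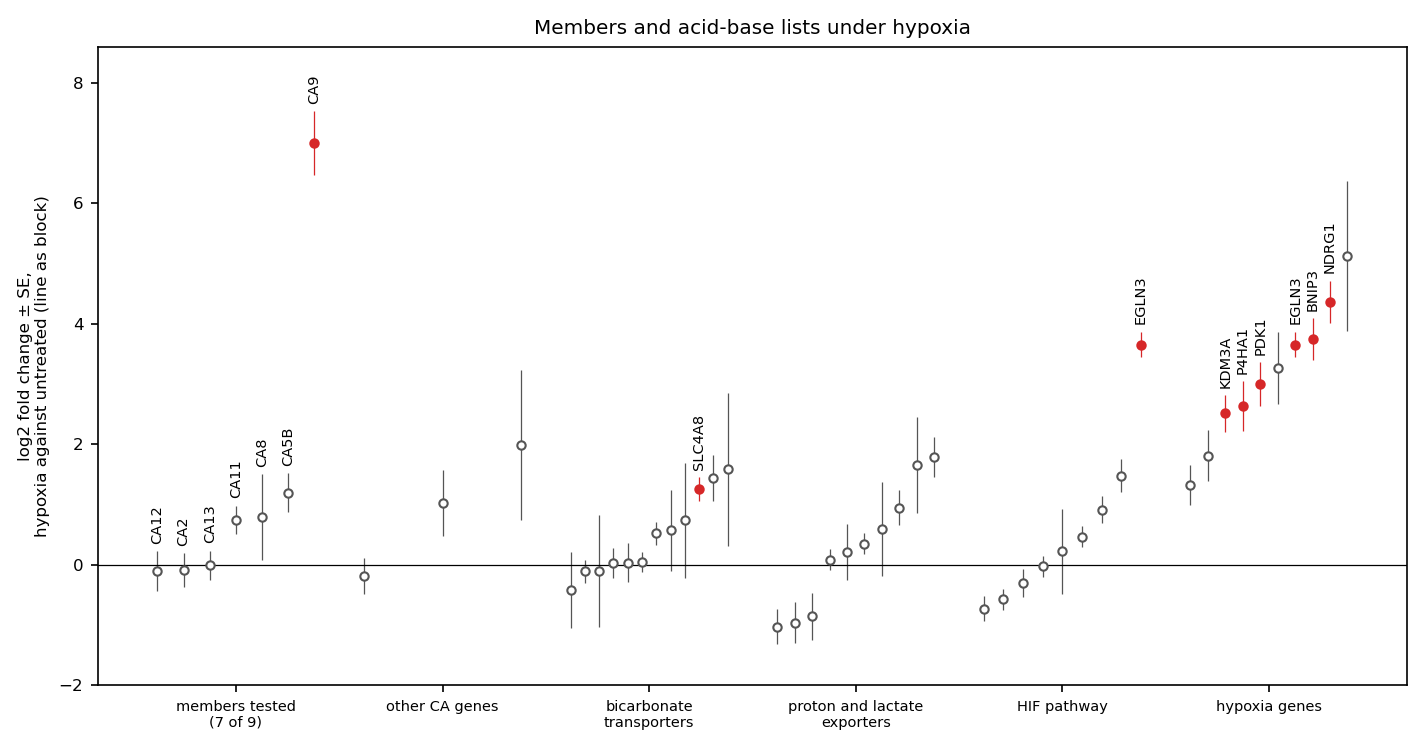
log2 fold change (vertical axis) with its standard error from edgeR with the cell line as block for the tested members and the tested genes of each list; filled red points have an adjusted p under 0.05. CA9 (7.0) is the 1 member and SLC4A8 (1.25) the 1 transporter that passed, and most other points of the acid-base lists lie within 2 of 0.

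Among the 14976 genes with a mean of at least 1 CPM, genes whose log2(CPM + 1) over the 8 libraries was most like that of CA9 included ELF3 (Pearson r 0.978), an epithelial transcription factor, and CMYA5 (0.962). ELF3 had 175.9, 465 and 194.8 CPM in DLD1, HCT116 and HCT8 under hypoxia and at most 115.2 in the untreated libraries. CA12 was most like FLJ42627 (0.967), HDAC10 (0.956) and CHKA (0.951), which were highest in HCT8. The r between CA9 and CA12 was -0.16. Libraries of one line are not independent, and these correlations describe the 8 libraries.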

How the data were processed

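Raw counts per gene were used as the authors deposited them, without normalization, in 1 table of 8 columns (0 left aside). Per the study's methods, clean reads were aligned to GRCh37.p13, whereas the submitters' processing notes name GRCh38 and HISAT2 2.0.4. The counter, the strand setting and the treatment of reads with several matches are not given in the sources used here. Groups and lines came from the sample titles.

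CPM used column totals. edgeR 4.0.16 (TMM, quasi-likelihood test, Benjamini-Hochberg adjustment over all genes tested, threshold 0.05) in R 4.3.3 was fitted to genes with 10 or more counts in 2 or more libraries. The standard error was the log2 fold change over the root of F. The code of the fits was also run on simulated counts. Their spread was set in advance and not taken from these libraries, so that run does not show how the tests perform here. Alternatives were DESeq2 1.42.0, limma-trend (limma 3.58.1), upper-quartile scaling, other filters, all 8 libraries, the replicate block and left-out libraries. DESeq2 with the block and the length of the longest transcript were added after seeing the data. The replicate number is the cell line under hypoxia and so pairs the libraries. Within a line, deviations from the group mean had r = 0.836 (DLD1), 0.857 (HCT116) and 0.82 (HCT8) against -0.611 to -0.0599 between lines. The deviations of a group sum to 0, so positive values within lines bring negative ones between lines on average.

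Ratios between 2 libraries carry exact (Clopper-Pearson) 95% intervals conditional on the joint count, computed with SciPy 1.17.1. Positions and lengths came from GENCODE release 44 lifted to GRCh37, and promoters from RefSeq (GRCh38.p14). The libraries of a group were different lines, and no line was repeated within a condition. Without the block, the tests set the mean difference against the spread between lines. With the block, they set the mean hypoxia difference against how far that difference varied from line to line. Members and lists were chosen with earlier results of these data known. Named genes were the 9 members, tested CA relatives, list genes called in either hypoxia fit, the 2 of each list with the largest change without the block, and the 3 genes most like CA9 and CA12, of which 1 is not reported here. HIF1A, FN1 and SLC9A5 were named after their values were seen.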

Additional observations from a re-analysis of the deposited data

Results flagged for a closer look

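CA12 moved in opposite directions in the CRC lines, with counting intervals on different sides of 0. The log2 ratio of hypoxia to untreated CPM was 0.43 in HCT116, -0.75 in DLD1 and -0.41 in HCT8. CA2 did so with other lines, at 0.65 in HCT8, -0.19 in DLD1 and -1.11 in HCT116. These signs were the same with TMM-scaled library sizes. Each line had 1 library per condition, so the difference between lines was not tested.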

How the results depend on the processing

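With hypoxia, edgeR called 0 genes without the replicate block under upper-quartile scaling, both other filters, limma-trend, all 8 libraries and each left-out library. DESeq2 called 51 genes, 1 of them a member and 6 others in the lists. The lists are CA relatives, bicarbonate transporters, proton and lactate exporters, the HIF pathway and the hypoxia genes, and their counts leave the members out. The 6 were ANKRD37, NDRG1, PDK1, EGLN3, P4HA1 and KDM3A, all of them among the hypoxia genes. The replicate block, which pairs each line with itself, gave 200, 1 and 7, and DESeq2 with the replicate block gave 1666, 3 (CA9, CA5B and CA11) and 19. With the block and 1 line left out, the counts were 292, 1 and 12 without DLD1, 738, 2 (CA9 and CA5B) and 11 without HCT116, and 6, 1 and 1 without HCT8, and the cause was not tested. CA9 was positive in its 16 alternatives, from 5.76 to 7.88 on the log2 scale, and past the threshold in 6, with adjusted p from 1.02e-21 to 1 over edgeR, DESeq2 and limma. CA5B (0.74 to 1.79) and CA11 (0.00036 to 1.58) also stayed positive.

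Members near 0 changed sign. CA13 under hypoxia was 0.0089 by DESeq2, 0.021 with upper-quartile scaling, 0.0016 with 10 counts required in every library, 0.013 by DESeq2 with the block and -0.26 to 0.16 with a library left out, and in HCT116 it was 0.10 with TMM scaling. With a library left out CA12 was -1.51 to 1.64 and CA2 was -0.42 to 0.25. With the block, CA12 was 0.18 without DLD1 and 0.052 without HCT8, CA13 was 0.11 without DLD1 and CA2 was 0.23 without HCT116.

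Between CRC and normal lines DESeq2 called 131 genes and the other settings 0. Shared replicate numbers there join different lines and pair nothing, and with that block CA12 was -1.76 and CA8 was 0.13. CA12 was -0.69 by limma-trend. With a library left out, CA12 was -1.75 to 0.59, CA2 -0.063 to 13.26, CA13 -0.64 to 6.08, CA11 -0.014 to 2.74 and CA8 -1.23 to 0.37. The highest values of CA2, CA13 and CA11 were those without NCM460. Of the alternatives for single members, 160 kept direction and side of the threshold, 26 changed sign and 9 newly passed. Depth limits CA9 without treatment (1 to 6 counts), CA1, CA4 and CA8.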

Other observations

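Set beside untreated HCT116, the library labelled NCM460 held the same 7 members above 3 counts. Its CPM ratio to HCT116 was 0.732 for CA2 (exact 95% counting interval 0.678 to 0.789), 1.32 for CA13 (1.18 to 1.47), 0.770 for CA5B (0.668 to 0.887) and 0.768 for CA8 (0.622 to 0.946). It was 0.492 for CA11 (0.439 to 0.550) and 2.24 for CA12 (1.88 to 2.69). HIEC6 had CA8 and CA2 at 0 counts, and 5 members above 3 counts.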
